A study of Mus musculus with 12 samples.

Results

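The genes described here make retinoic acid from vitamin A or read it out. They are 10 listed genes: Stra6l, which takes up retinol; Rdh10 and Dhrs3, which turn retinol into retinal and back; Aldh1a1, Aldh1a2 and Aldh1a3, which oxidise retinal to retinoic acid; and the receptor genes Rara, Rarg, Rxra and Rxrb. They were chosen by name, were matched to their Ensembl identifiers, and are 10 of the 53801 genes in the count files. All 10 passed the filter of 5 counts in at least 1 of the 12 samples, as did 20580 genes in all, and 8 of them had 5 or more counts in every sample. Aldh1a1 and Aldh1a3 did not.

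The samples were dendritic cells (DCs) of 2 subsets, CD103+CD11b- and CD103-CD11b+, sorted from mouse gut, each from wild type (WT) mice and from CbfbF/F: CD11c-Cre mice (cKO), which lack the partner subunit of Runx transcription factors in cells that express CD11c. There were 4 groups of 3 samples, 12 in all, and the 3 samples of a group came from different mice of mixed background. The gate took CD45+CD64-CD11c+MHC-II+ cells, the animals' age is not given for these samples, and the labels do not say whether the WT mice carried Cre. The Cre driver is also known to act in some gut T cells, so the deletion was not limited to DCs in these animals.

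Vitamin A reaches cells as retinol, which is oxidised first to retinal and then, by an irreversible step, to retinoic acid. Retinoic acid binds nuclear receptors (RARs) that sit on DNA together with retinoid X receptors (RXRs). Gut DCs, above all those carrying CD103, are known for retinal dehydrogenase activity, and the retinoic acid they release gives T and B cells the gut-homing receptors and favours regulatory T cells.

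The libraries held 2161929 to 5863484 reads on genes. Levels are CPM, the counts scaled to a common library size after TMM normalization. Differences are log2 fold changes with p-values from edgeR (quasi-likelihood F), adjusted by Benjamini and Hochberg's method over the 20580 genes. A gene was called at an adjusted p under 0.05 with a fold change over 1.3. The labelled subsets differed as their markers should, since 8 of 8 markers of cDC1 cells (Xcr1, Clec9a and others) were lower in CD103-CD11b+ than in CD103+CD11b- DCs in both genotypes, and 3 of 8 cDC2 markers in WT and 6 of 8 in cKO were higher. Cbfb itself, counted over the whole gene, averaged 214 CPM in WT and 242 in cKO CD103+CD11b- DCs and 188 and 207 CPM in CD103-CD11b+ DCs, so these counts, which do not resolve the deleted part, do not check the genotype labels. Genes of other cell types were counted in all groups, and levels that move with a result are given beside it. The sum over 8 granulocyte and mast cell markers ranged from 247 to 465 CPM over the groups. In WT CD103+CD11b- DCs Epx, S100a8, S100a9, Cpa3 and Mcpt1 of this list had no counts in any sample. The sum there, 325 to 360 CPM, came from Siglecf, Prg2 and Kit alone.

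Compared per length, as CPM per kb of exon, Aldh1a2 had the highest level of the 10 genes in 3 of the 4 groups. It was at 74.0 ± 19.7 in WT and 133 ± 29.6 in cKO CD103+CD11b- DCs and at 39.8 ± 4.92 in cKO CD103-CD11b+ DCs (SD, n = 3), and in each of these groups its lowest sample lay above the highest sample of the next gene. In WT CD103-CD11b+ DCs, Dhrs3 had the highest mean, 32.2 ± 9.34 CPM per kb (SD, n = 3), but there the 7 highest-ranked genes each overlapped the next in the order. Rara and Rxrb lay between 19.7 and 34.1 CPM per kb in every sample. The other retinal dehydrogenases were at the bottom of the order in 3 groups, all but cKO CD103-CD11b+ DCs, with Aldh1a1 at a mean of 0.135 CPM per kb in WT CD103+CD11b- DCs and Aldh1a3 at 0.474. Over the 4 groups Stra6l moved most within the order, between ranks 2 and 7, and Dhrs3 moved between ranks 1 and 5. Stra6l had rank 4 in WT CD103+CD11b- DCs with 18.1 ± 3.41 CPM per kb and rank 7 in cKO CD103+CD11b- DCs with 2.55 ± 0.690 (SD, n = 3).

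**Figure D1:**
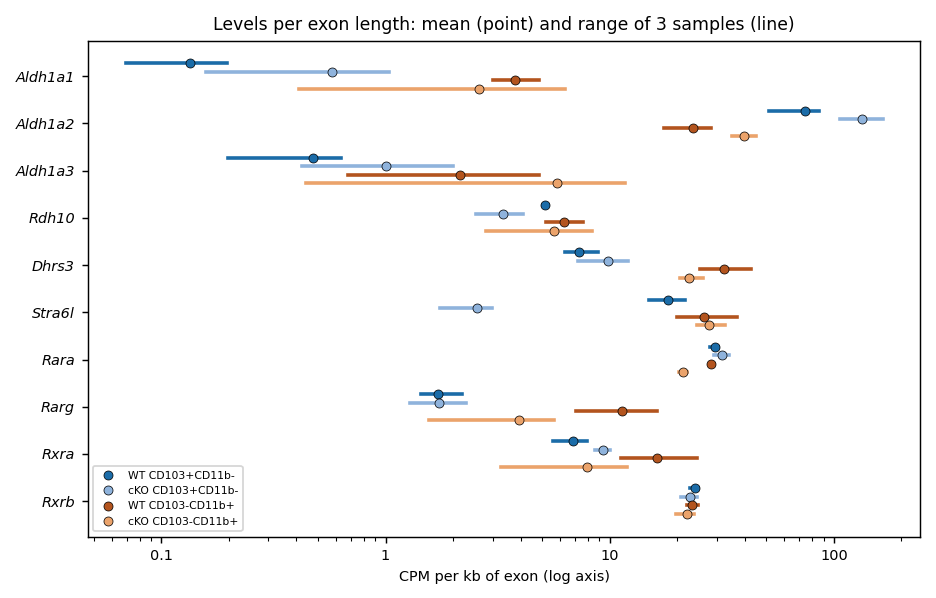
Levels of the 10 genes per exon length, in CPM per kb of exon on a log axis, with the mean (point) and the range (line) of the 3 samples of each of the 4 groups. Aldh1a2 lies furthest right in both CD103+CD11b- groups, Rxrb has nearly coincident groups, and the cKO CD103+CD11b- point of Stra6l, at 2.55, stands left of the other 3.

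Stretches of at most 30 bases show where the promoters of members hold the Runx motif, since Cbfb is the partner of Runx factors, and where those of receptor genes hold the hexamer that retinoid receptors bind. RefSeq promoter windows (GRCm38.p6, 250 bases before to 50 after each annotated start) were at hand for 8 members, all but Aldh1a3 and Rdh10. The motif TGTGGT, or ACCACA on the other strand, was in windows of 4 of the 8 members (Stra6l, Dhrs3, Rara and Rarg), and 18.9% of 27025 genes hold it. Members had more windows per gene than all genes on average, and counted by window the motif was in 6 of their 18 windows, against 16.8% of all 32851. The hexamer AGGTCA, or TGACCT, was in windows of 3 of the 8 (Rxra, Rara and Rarg), against 18.1% of genes, and in 3 of the 18 windows, against 16.3% of all, a share near the background. The motifs are in capitals, each sequence is read 5′ to 3′ on the gene's strand, and these letters do not overlap between the motifs.
Stra6l, chr4:45848730-45848759, plus strand, Runx: ggtggtcctgggACCACAgctggggcgggg
Dhrs3, chr4:144893053-144893082, plus strand, Runx: ctgtgtgcgcgcTGTGGTtggtgctttttt
Rara, chr11:98939461-98939488, plus strand, Runx: ggtgtgaaccTGTGGTgtatgcagaaga
Rarg, chr15:102246643-102246672, minus strand, Runx: cgtttgcaaattTGTGGTgcctgccaagat
Rxra, chr2:27709232-27709261, plus strand, hexamer: gggtggcaggaaAGGTCAgtcactctctgt
Rara, chr11:98964893-98964921, plus strand, hexamer: gcagattgcagcAGGTCAgtcctttggac
Rarg, chr15:102257730-102257759, minus strand, hexamer: agcccaggacacTGACCTctgccagctctg

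The Stra6l match begins at -74 or -205 from its annotated starts, that of Dhrs3 at -12 or -72. Dhrs3 has further matches of the Runx motif upstream, and Rxra a second hexamer. A match is a description of letters in a window, and the windows of Aldh1a1, Aldh1a2 and Rxrb held neither motif.

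Of the 10 genes, 6 differed somewhere among the 4 groups by edgeR's F-test at an adjusted p under 0.05, as did 28.0% of all genes tested. Between the genotypes 1 was called in CD103+CD11b- DCs, the retinol receptor gene Stra6l, which fell in cKO by 2.81 on the log2 scale. In CD103-CD11b+ DCs no member was called. In CD103+CD11b- DCs the background share of called genes was 1.02% of the 20580 tested, 0.224% higher and 0.797% lower. For CD103-CD11b+ DCs it was 1.61%, made up of 1.11% higher and 0.500% lower. At an unadjusted p under 0.05 the members numbered 2 and 4, against background shares of 10.5% and 17.4%. The members' log2 fold changes had a median of 0.26 in CD103+CD11b- DCs, where the median over all genes was -0.02. For CD103-CD11b+ DCs these medians were -0.27 and -0.06. All 3 cKO samples lay on one side of all 3 WT samples for 4 members in the CD103+CD11b- subset and for 3 in the other, beside background shares of 18.1% and 20.1% of genes. In bulk samples such as these, fewer cells of a type and less RNA per cell cannot be told apart.

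**Figure D2:**
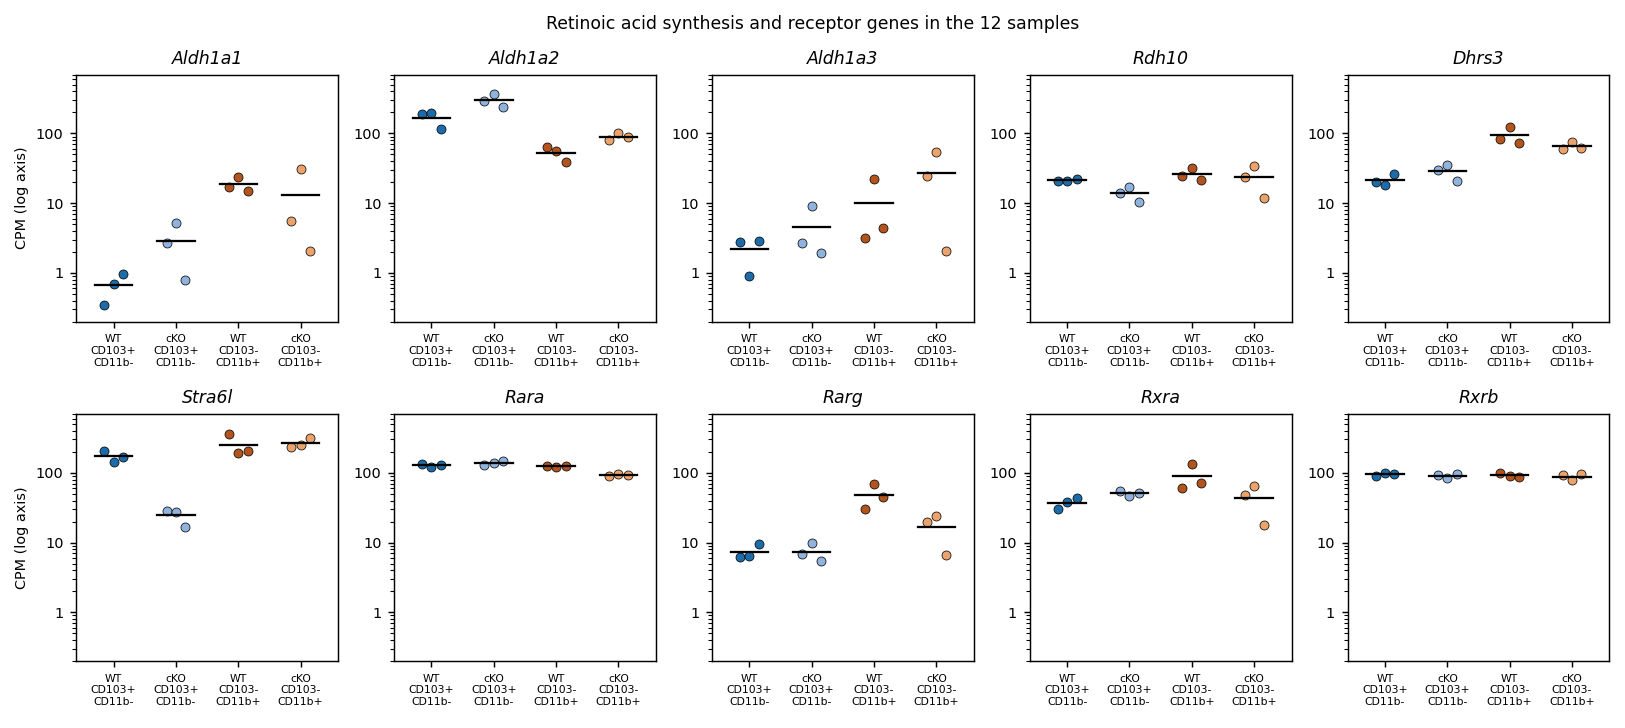
CPM of each of the 10 genes on a shared log axis in the 12 samples, by genotype and subset. Points are samples and bars are means. The 3 cKO CD103+CD11b- samples of Stra6l lie at 16.8 to 28.6, below all 9 others, while Rxrb stays between 78.3 and 98.7 in all 12 samples.

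Stra6l (ENSMUSG00000028327, chr4:45848664-45887008, plus strand of GRCm38) encodes a membrane protein that binds retinol-binding protein and takes up retinol. Its promoter holds the Runx motif shown above. Its level was 208, 143 and 170 CPM in the WT CD103+CD11b- samples and 28.6, 27.8 and 16.8 CPM in the cKO samples of that subset. It was 354, 191 and 207 CPM in the WT CD103-CD11b+ samples and 235, 253 and 311 CPM in the cKO samples. The groups did not overlap in CD103+CD11b- DCs, where the highest cKO sample was far below the lowest WT sample, and they overlapped in CD103-CD11b+ DCs. In CD103+CD11b- DCs Stra6l was 7.01-fold lower in cKO (log2 fold change -2.81, 95% interval -3.43 to -2.19, edgeR adjusted p = 0.00185). In CD103-CD11b+ DCs the difference was 0.08 (95% interval -0.48 to 0.65, edgeR adjusted p = 0.902). The difference between both effects was itself called, at 2.89 on the log2 scale (standard error 0.38, edgeR adjusted p = 0.00993), and Stra6l was the only one of the 10 members called there, beside a background share of 0.651%, of which 0.554% had a positive and 0.0972% a negative difference. Of the 10 members, 5 had an unadjusted p under 0.05 there, beside 11.1% of all genes. Leaving out any single sample kept the call in CD103+CD11b- DCs and the call of the difference, with adjusted p up to 0.0135 and 0.0364 by the same test.

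Markers of cDC2 cells moved with Stra6l. In CD103+CD11b- DCs 4 of the 8 cDC2 markers were called lower in cKO, Sirpa with a log2 fold change of -2.74, Irf4 with -1.78, Cd209a with -2.80 and Clec4a4 with -4.27. The summed level of the 8 was 529 to 710 CPM in the WT and 190 to 294 CPM in the cKO samples, and Clec4a4, the one least present, had 0, 2 and 1 counts in the cKO samples. The calls of Sirpa, Irf4 and Cd209a were lost when single samples were left out, with adjusted p up to 0.167, 0.113 and 0.175, and that of Clec4a4 was kept (edgeR). Itgam, the gene of CD11b that the sort selects against here, was at 4.32 CPM in WT and 8.14 in cKO, and none of the 8 cDC1 markers was called. The part of the cDC2 markers in the Stra6l result was not tested.

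**Figure D3:**
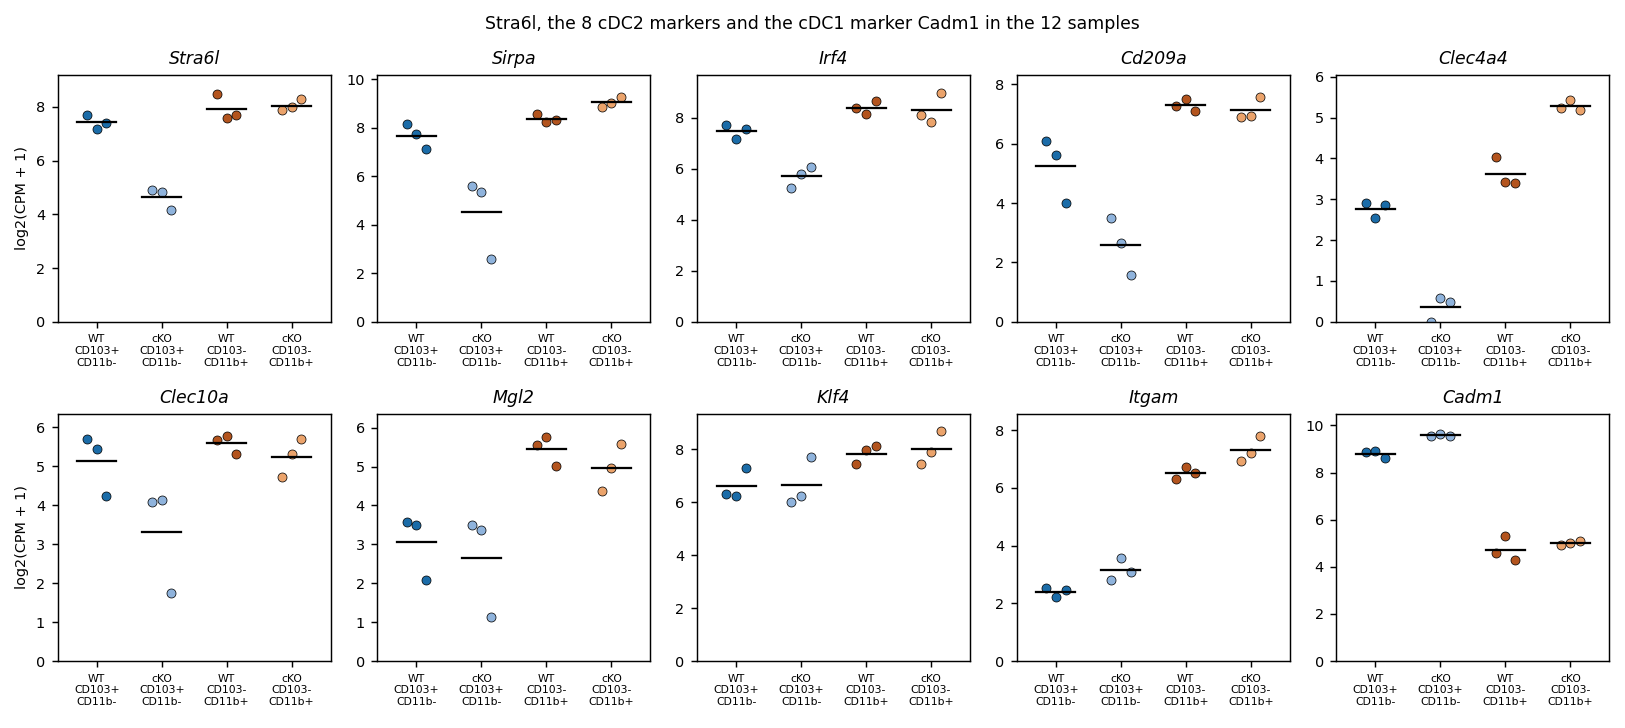
Stra6l, the 8 cDC2 markers and the cDC1 marker Cadm1 in the 12 samples, as log2(CPM + 1). Points are samples and bars are means. Stra6l, Sirpa, Irf4, Cd209a and Clec4a4 all have their lowest mean in the cKO CD103+CD11b- group, whereas Itgam and Klf4 are not lower there than in WT by their means.

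Among the enzymes, Aldh1a2 was the member with the clearest cKO levels. Aldh1a2 (ENSMUSG00000013584, chr9:71215789-71296243, plus strand) encodes the retinal dehydrogenase best known from CD103+ gut DCs. It was at 193, 194 and 116 CPM in the WT and 292, 373 and 240 CPM in the cKO CD103+CD11b- samples. It was at 64.2, 56.3 and 39.6 CPM in the WT and 79.7, 102 and 88.7 CPM in the cKO CD103-CD11b+ samples. Every cKO sample was above every WT sample in both subsets. The summed level of the cDC1 markers was also above WT in all cKO CD103+CD11b- samples, at 4501 to 5452 CPM against 3197 to 4468, and in CD103-CD11b+ DCs it overlapped, at 508 to 1030 against 564 to 885. The WT CD103+CD11b- sample with the lowest Aldh1a2, replicate 3, had the lowest cDC1 sum of its group and a stromal sum of 719 CPM, against 200 and 146, and without it the log2 fold change in that subset was 0.64. The part of these in the Aldh1a2 levels was not tested. The log2 fold change was 0.85 (95% interval 0.33 to 1.38) in CD103+CD11b- DCs and 0.75 (0.22 to 1.29) in CD103-CD11b+ DCs, and neither was called (edgeR adjusted p = 0.150 and 0.145). Over the 8 alternatives that kept all samples of the comparison the adjusted p ran from 0.0191 to 0.151 in the first and from 0.0384 to 0.229 in the second, so some settings called each. The difference between both effects was -0.10 (95% interval -0.85 to 0.65). Averaged over the subsets, a contrast chosen after these values were seen, Aldh1a2 was 0.80 higher in cKO on the log2 scale (standard error 0.17, edgeR adjusted p = 0.0344), and the background share of called genes was 2.49%, 1.17% higher and 1.32% lower. That call was lost in 9 of the 12 fits that left out a sample, where adjusted p ran from 0.0335 to 0.0843. The other member called in this average was Stra6l, at -1.36, and 4 members had an unadjusted p under 0.05, beside 16.6% of all genes. Among the marker genes Irf4, Cdh1 and Thy1 were called lower and Itgam, Ms4a1 and Siglecf higher in this average, the calls of Irf4 and Itgam being lost in 11 and 9 of the 12 fits that left out a sample. The part of these markers in the Aldh1a2 average was not tested.

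The remaining enzymes gave no call between the genotypes. Dhrs3 (ENSMUSG00000066026, chr4:144892827-144928209, plus strand), which reduces retinal back to retinol, was at 19.8, 18.5 and 25.9 CPM in WT and 30.0, 35.1 and 21.1 CPM in cKO CD103+CD11b- DCs. In CD103-CD11b+ DCs it was at 84.0, 125 and 73.6 CPM in WT and 60.2, 76.1 and 62.2 CPM in cKO. The groups overlapped in both subsets, and the log2 fold changes were 0.43 and -0.51, with intervals of -0.11 to 0.96 and -1.02 to 0.01. Rdh10 (ENSMUSG00000025921, chr1:16105774-16133734, plus strand), which oxidises retinol to retinal, was at 20.9, 21.05 and 22.1 CPM in WT and 14.2, 17.1 and 10.6 CPM in cKO CD103+CD11b- DCs. All 3 cKO samples were below the 3 WT samples there, with a log2 fold change of -0.61 (95% interval -1.33 to 0.12, edgeR adjusted p = 0.613). In CD103-CD11b+ DCs Rdh10 was at 24.9, 31.7 and 21.5 CPM in WT and 24.0, 34.7 and 11.7 CPM in cKO, and these groups overlapped.

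Aldh1a1 and Aldh1a3 encode the other retinal dehydrogenases and were counted at low levels with a wide spread. Aldh1a1 (ENSMUSG00000053279, chr19:20492715-20643465, plus strand) was at 0.342, 0.686 and 0.970 CPM in WT CD103+CD11b- DCs, from 1, 3 and 6 counts, and at 2.66, 5.13 and 0.782 CPM in cKO. In CD103-CD11b+ DCs it was at 17.2, 24.0 and 14.8 CPM in WT and 5.61, 31.2 and 2.04 CPM in cKO. The genotypes overlapped in both subsets, and the intervals of the log2 fold change, -0.17 to 4.18 and -2.18 to 1.19, leave large differences in either direction possible in the second. Aldh1a3 (ENSMUSG00000015134, chr7:66390890-66427517, minus strand) was at 2.74, 0.915 and 2.91 CPM in WT and 2.66, 9.27 and 1.96 CPM in cKO CD103+CD11b- DCs. It was at 3.13, 22.3 and 4.36 CPM in WT and 24.5, 54.2 and 2.04 CPM in cKO CD103-CD11b+ DCs. Here too the genotypes overlapped, with log2 fold changes of 1.10 and 1.48 and standard errors of 1.10 and 0.99.

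The receptor genes differed in how tightly they were measured. Rara (ENSMUSG00000037992, chr11:98927818-98974942, plus strand), the RAR gene with the highest level per length here, was at 133, 122 and 130 CPM in WT and 127, 137 and 149 CPM in cKO CD103+CD11b- DCs. In CD103-CD11b+ DCs it was at 127, 122 and 123 CPM in WT and 88.9, 96.6 and 93.3 CPM in cKO. Only the second pair of groups was without overlap, all 3 cKO samples being under 97 CPM. The log2 fold change there was -0.42 (95% interval -0.62 to -0.21), and it missed the call with an edgeR adjusted p of 0.0524. DESeq2 gave an adjusted p of 0.00299, and edgeR called Rara with filterByExpr (0.0451) and with a filter of 5 counts in every sample (0.0279), so this call depends on the settings. Over the 8 alternatives that kept all samples of the comparison the adjusted p ran up to 0.295. None of the 6 fits that left out a sample called Rara there (edgeR adjusted p 0.0930 to 0.170). The difference between the subsets' effects was -0.52 on the log2 scale (edgeR adjusted p = 0.139), and DESeq2 called it at an adjusted p of 0.00762.

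Rarg (ENSMUSG00000001288, chr15:102234938-102257517, minus strand), the other RAR gene among the members, was at 6.15, 6.41 and 9.38 CPM in WT and 6.88, 9.76 and 5.48 CPM in cKO CD103+CD11b- DCs. It was at 30.1, 69.3 and 44.8 CPM in WT and 19.8, 24.0 and 6.63 CPM in cKO CD103-CD11b+ DCs. In the second subset the groups did not overlap, and the log2 fold change was -1.48 (95% interval -2.43 to -0.53, edgeR adjusted p = 0.111). DESeq2 called it at an adjusted p of 0.0229, and over the 8 alternatives that kept all samples of the comparison the adjusted p ran up to 0.285. None of the 6 fits that left out a sample called Rarg there (edgeR adjusted p 0.0719 to 0.283). Beside these CD103-CD11b+ values, Adgre1 (a macrophage marker), Ms4a1 (a B cell marker) and Clec4a4 were called higher and Itgae, the gene of CD103, lower in cKO. The call of Clec4a4 was lost in 5 of the 6 fits that left out a sample (edgeR adjusted p up to 0.117). The summed epithelial markers were at 41.2 to 72.9 CPM in cKO against 182 to 317 in WT, without overlap. The summed granulocyte and mast cell markers were at 380 to 465 CPM in cKO against 247 to 341 in WT, also without overlap. The part of these in the Aldh1a2, Rara and Rarg values was not tested.

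Rxra and Rxrb encode the partners with which RARs bind DNA. Rxra (ENSMUSG00000015846, chr2:27676440-27762957, plus strand) was at 30.4, 38.4 and 43.2 CPM in WT and 54.6, 46.9 and 52.0 CPM in cKO CD103+CD11b- DCs, without overlap. It was at 61.1, 133 and 71.6 CPM in WT and 47.4, 65.0 and 17.8 CPM in cKO CD103-CD11b+ DCs, which overlapped. The log2 fold changes were 0.45 (95% interval -0.42 to 1.32) and -1.01 (-1.87 to -0.14), with edgeR adjusted p of 0.823 and 0.223. Rxrb (ENSMUSG00000039656, chr17:34031812-34038399, plus strand) was at 90.3, 98.2 and 97.2 CPM in WT and 92.8, 83.0 and 97.0 CPM in cKO CD103+CD11b- DCs. In CD103-CD11b+ DCs it was at 98.7, 91.0 and 87.6 CPM in WT and 91.6, 78.3 and 94.8 CPM in cKO. Its groups overlapped in both subsets, and in each the interval of the log2 fold change ran from -0.31 to 0.18.

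**Figure D4:**
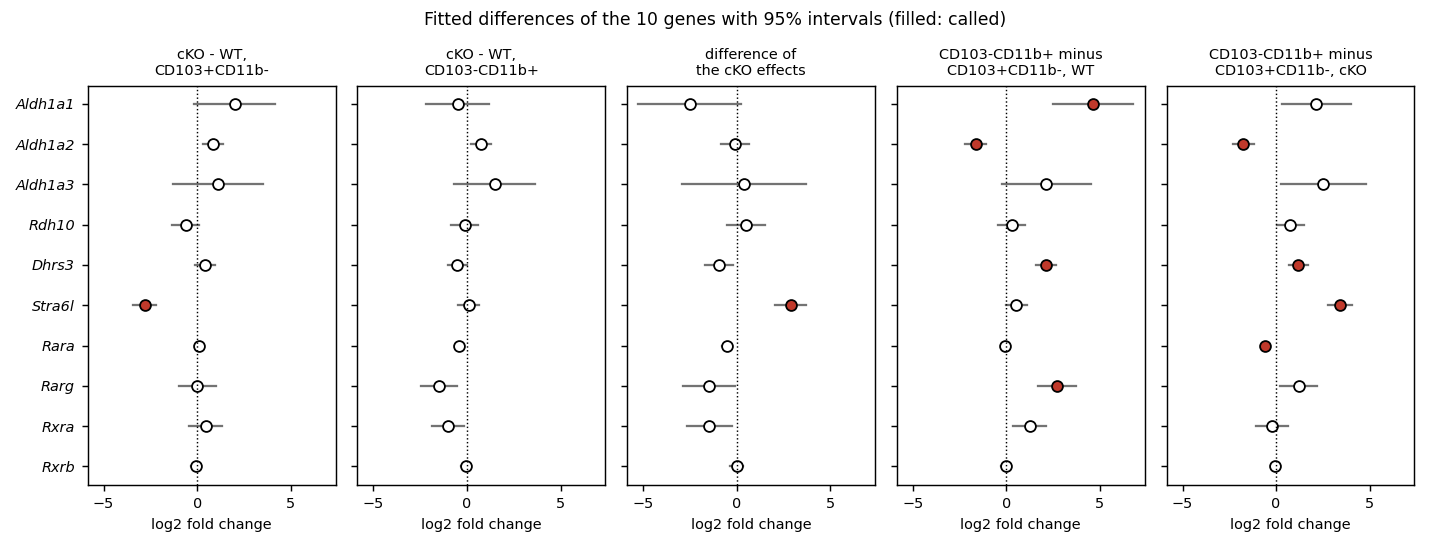
Fitted log2 fold changes of the 10 genes with 95% intervals for 5 comparisons, which are cKO against WT in either subset, how far these 2 differ, and CD103-CD11b+ against CD103+CD11b- DCs in either genotype. Filled points were called. Stra6l is filled in 3 of the 5 panels and Aldh1a2 in both subset panels, and the intervals of Aldh1a1 and Aldh1a3 are the widest.

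The subsets differed in more of these genes than the genotypes did. In WT mice 4 of the 10 were called between CD103-CD11b+ and CD103+CD11b- DCs, 3 higher (Aldh1a1, Dhrs3 and Rarg) and 1 lower (Aldh1a2), against a background of 18.8% of genes, 11.8% higher and 7.00% lower. In cKO mice 4 were called as well, Dhrs3 and Stra6l higher and Aldh1a2 and Rara lower, against a background of 16.1%, 9.26% higher and 6.81% lower. At an unadjusted p under 0.05 the members numbered 5 and 8, beside 34.3% and 31.9% of genes. The subsets did not overlap for 6 members in WT and for 4 in cKO, beside 38.1% and 34.0% of all genes. The median difference of the 10 genes was 0.89 in WT and 0.98 in cKO on the log2 scale, and over all genes it was 0.07 and 0.11. The subset comparisons use the same samples as the genotype comparisons above and are not independent of them.

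Aldh1a2 was lower in CD103-CD11b+ DCs in both genotypes, with log2 fold changes of -1.64 in WT and -1.74 in cKO (edgeR adjusted p = 0.00193 and 0.000693). Its lowest CD103+CD11b- sample, at 116 CPM, was above the highest CD103-CD11b+ sample, at 102 CPM. Dhrs3 went the other way, with log2 fold changes of 2.13 in WT and 1.20 in cKO (edgeR adjusted p = 0.000453 and 0.00654), and its lowest CD103-CD11b+ sample, at 60.2 CPM, was above its highest CD103+CD11b- sample, at 35.1 CPM. The retinal dehydrogenase gene with the highest level per length and the gene of the enzyme that returns retinal to retinol were thus higher in different subsets. The difference of the Dhrs3 effects, -0.93, was not called (edgeR adjusted p = 0.313).

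Stra6l did not differ between the subsets in WT beyond the test's threshold, with a log2 fold change of 0.53 (95% interval -0.03 to 1.10, edgeR adjusted p = 0.167). In cKO it was 10.8-fold higher in CD103-CD11b+ DCs (log2 fold change 3.43, standard error 0.29, edgeR adjusted p = 2.4e-05). Rara was nearly level between the subsets in WT, at -0.05 (95% interval -0.25 to 0.15), and lower in CD103-CD11b+ DCs in cKO, at -0.57 (edgeR adjusted p = 0.00183). Rxrb was at -0.04 in both genotypes, with intervals of -0.29 to 0.20.

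Aldh1a1 and Rarg were higher in CD103-CD11b+ DCs of WT mice, with log2 fold changes of 4.65 (95% interval 2.51 to 6.79, edgeR adjusted p = 0.0101) and 2.69 (1.69 to 3.69, adjusted p = 0.00354). For Aldh1a1 the low group rests on the 1 to 6 counts per sample given above, so the fold is imprecise. In cKO the same differences were 2.15 and 1.20 and were not called without a replicate block (edgeR adjusted p = 0.105 and 0.0920). Same-numbered cKO samples correlated in the pairing check, but so did a cKO pair of different numbers (r = 0.141), so the check does not establish pairing. With the replicate number within genotype as a block, in WT and cKO alike, both genes were called. Aldh1a1 was at 1.85 (edgeR adjusted p = 0.0199) and Rarg at 1.15 (edgeR adjusted p = 0.0393), which made 6 members, beside 21.5% of all genes in that fit. With a block common to both genotypes neither was called, and the count stayed at 4. Rxra was 1.24 higher in WT (edgeR adjusted p = 0.0502), just short of the call. It was called in 8 of 9 alternatives that kept all samples of the comparison, with adjusted p from 0.0121 to 0.0502 over the 9, which include the main fit without its fold limit. Of the 6 fits that left out a sample 1 called it, with adjusted p up to 0.2002. In cKO it was at -0.22. Aldh1a3, with 2.14 and 2.52, and Rdh10, with 0.28 and 0.76, were not called.

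For 5 members the cKO CD103-CD11b+ samples spread widely, with replicate 2 at the high end and replicate 3 at the low end. Replicate 3, the library with the fewest counts on genes (2161929), had the lowest value of its group for Aldh1a1, Aldh1a3, Rdh10, Rarg and Rxra, at 2.04, 2.04, 11.7, 6.63 and 17.8 CPM. Without it 8 members were called between the cKO subsets, beside 17.7% of all genes, Aldh1a1, Aldh1a3, Rdh10 and Rarg being added with edgeR adjusted p of 0.0324, 0.0383, 0.0176 and 0.0173. Replicate 2 had the highest value of the group for the same 5 genes. Without it the differences of Aldh1a1, Aldh1a3, Rdh10 and Rarg were 0.44, 1.54, 0.38 and 0.87, with edgeR adjusted p of 0.725, 0.410, 0.508 and 0.294. The summed level of 10 stromal markers (Col1a1, Dcn, Pdgfra and others) was 370 CPM in replicate 3 and 2322 CPM in replicate 2, with 924 CPM in replicate 1. Replicate 3 also had the highest sums of DC markers (5480 CPM, against 3168 and 3272), cDC2 markers (2066, against 1236 and 1361) and cDC1 markers (1030, against 745 and 508). In the WT CD103-CD11b+ samples the sum was 770 to 2214 CPM, and it was 146 to 719 CPM in WT and 121 to 413 CPM in cKO CD103+CD11b- DCs. Of the 10 stromal markers, Pecam1 in WT and Pecam1 and Pdgfra in cKO were called higher in CD103-CD11b+ DCs. Retinal dehydrogenase and RAR genes are also expressed by stromal cells, and the part of such cells in these differences was not tested.

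Markers of other cells moved with the subsets as well. Of 9 macrophage markers, 7 in WT and 6 in cKO were higher in CD103-CD11b+ DCs, and their summed level was 160 to 435 CPM in WT and 316 to 531 CPM in cKO, against 17.6 to 34.3 and 14.2 to 69.8 CPM in CD103+CD11b- DCs. Of 12 epithelial markers, 3 (Vil1, Krt8 and Krt18) were higher in WT CD103-CD11b+ DCs and none in cKO. Their sum was 182 to 317 CPM in WT and 41.2 to 72.9 CPM in cKO CD103-CD11b+ DCs, against 86.8 to 235 and 20.3 to 123 CPM in CD103+CD11b- DCs, and Phgr1 was at 0 in all WT CD103+CD11b- and all cKO CD103-CD11b+ samples. Of 8 B cell markers, 1 (Ighm) was lower and none higher in WT CD103-CD11b+ DCs, with sums of 836 to 1360 against 800 to 895 CPM, and 3 were higher in cKO (977 to 1705 CPM, against 504 to 1160). Of 8 T cell and ILC markers, Cd8a and Il7r were lower in WT CD103-CD11b+ DCs, as were the 8 cDC1 markers. In cKO, Cd8a and Thy1 were called in opposite directions. The sum of the 8 T cell and ILC markers, Cd8a included, was 90.7 to 201 CPM in WT and 66.8 to 230 CPM in cKO CD103-CD11b+ DCs. It was 260 to 499 and 263 to 312 CPM in CD103+CD11b- DCs. Of 8 granulocyte and mast cell markers, Prg2 was called higher in cKO CD103-CD11b+ DCs and none was called in WT. The part of these markers, or of the cells they stand for, in the retinoid differences was not tested.

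Of 64 other genes that handle, convert or answer to retinoids, 51 were tested. Dhrs9, a short-chain dehydrogenase that can oxidise retinol, was by the edgeR fit to all 12 samples the only one of them called between the genotypes within a subset, and it was higher in cKO in both. Its level was 29.4, 40.0 and 47.4 CPM in WT and 109, 115 and 124 CPM in cKO CD103+CD11b- DCs. It was 7.05, 5.33 and 6.40 CPM in WT and 24.9, 30.9 and 41.8 CPM in cKO CD103-CD11b+ DCs. No cKO sample overlapped a WT sample of its subset. The log2 fold changes were 1.57 and 2.35 (standard errors 0.21 and 0.24, edgeR adjusted p = 0.00797 and 0.00119), and the difference between them, 0.78, was not called (adjusted p = 0.364). In CD103-CD11b+ DCs the number of these genes called was 1 and became 4 with DESeq2, 2 with filterByExpr, 2 with 5 counts in every sample, and 0 in an edgeR fit to the 6 samples of that subset alone, where Dhrs9 had an adjusted p of 0.0556. The share over all genes went from 1.61% to 5.52%, 3.07%, 4.87% and 0.137% in these fits. For the difference of the effects the number of these genes called was 0 and became 2 with DESeq2, while the share over all genes went from 0.651% to 2.46%. Dhrs9 was lower in CD103-CD11b+ DCs in both genotypes, with log2 fold changes of -2.63 in WT and -1.85 in cKO (edgeR adjusted p = 8.52e-05 and 0.000216).

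Between the subsets, 20 of the 51 genes were called in WT, 16 higher and 4 lower in CD103-CD11b+ DCs, and 12 in cKO, 7 higher and 5 lower. Over all genes tested, 11.8% were called higher and 7.00% lower in WT, and 9.26% and 6.81% in cKO, and the small lists that follow are read against these shares. Of 11 measured genes for retinoid uptake, binding and storage, 6 were higher and 1 was lower in WT, and 3 and 1 in cKO. Examples are Lrp1, a receptor for lipoprotein remnants, with a log2 fold change of 3.35 in cKO and 3.34 in WT, Lpl, the lipase that frees fatty acids from those lipoproteins, with 5.36 in WT against a mean of 1.10 CPM in CD103+CD11b- DCs, and Fabp5, a carrier of retinoic acid and fatty acids, with 3.34 in cKO. With samples left out, Lpl ran from 4.03 to 6.70 in WT, and Lrp1 lost its call without replicate 1 of the CD103+CD11b- samples in each genotype (edgeR adjusted p = 0.0579 in WT and 0.0538 in cKO). Rbp7, Fabp5 and Ttr each lost the call in WT in 5 of the 6 fits that left out a sample. Lpl lost it in cKO in 3 of 6. The lower gene of this list was Cd36, a fatty acid transporter, with -1.72 in cKO. Of 9 RXR partner receptors, 4 were higher in WT and 2 in cKO, and none was lower. Among them Nr1h3, the gene of the oxysterol receptor LXR alpha, was 3.05 higher in WT and 4.12 in cKO on the log2 scale, and Ppard 1.20 and 1.17. Vdr, the vitamin D receptor gene, was at 2.49 CPM in WT CD103+CD11b- and 20.6 CPM in WT CD103-CD11b+ DCs (edgeR adjusted p = 0.00219).

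Target genes of retinoic acid did not move one way. Of 9 measured, 2 were higher and 2 lower in CD103-CD11b+ DCs of WT mice, and 1 and 3 in cKO. Tgm2, a transglutaminase gene, was higher by 1.98 in WT and by 2.52 in cKO. Ccr9, the gut-homing chemokine receptor gene, was at -2.07 and -1.88, with means of 406 and 96.5 CPM in the WT subsets. Cyp26b1, whose product breaks retinoic acid down and which was the only 1 of the 3 breakdown genes with enough counts, was named after its values were seen. It was at 616, 410 and 589 CPM in WT and 545, 663 and 996 CPM in cKO CD103+CD11b- DCs, and at 149, 234 and 289 CPM in WT and 75.0, 242 and 26.5 CPM in cKO CD103-CD11b+ DCs. The subsets did not overlap in either genotype, and the difference was called in cKO (log2 fold change -2.66, edgeR adjusted p = 0.0129) and not in WT (-1.27, adjusted p = 0.151). With a sample left out the cKO difference ran from -3.82 to -2.21 and stayed called (edgeR adjusted p up to 0.0492). Of the 13 other receptors and coregulators, 2 were higher in WT and 1 was lower in cKO. Of the 2, Rxrg lost its call in all 6 fits that left out a sample (edgeR adjusted p 0.0511 to 0.0885). Of 11 measured retinol and retinal dehydrogenases and carotene cleavage enzymes, 3 were higher and 1 was lower in WT, and 1 and 1 in cKO. With WT CD103+CD11b- replicate 2 left out, the 20 calls in WT dropped to 10, and without replicate 1 to 11, while the share over all genes went from 18.8% to 6.88% and 8.13%.

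**Figure D5:**
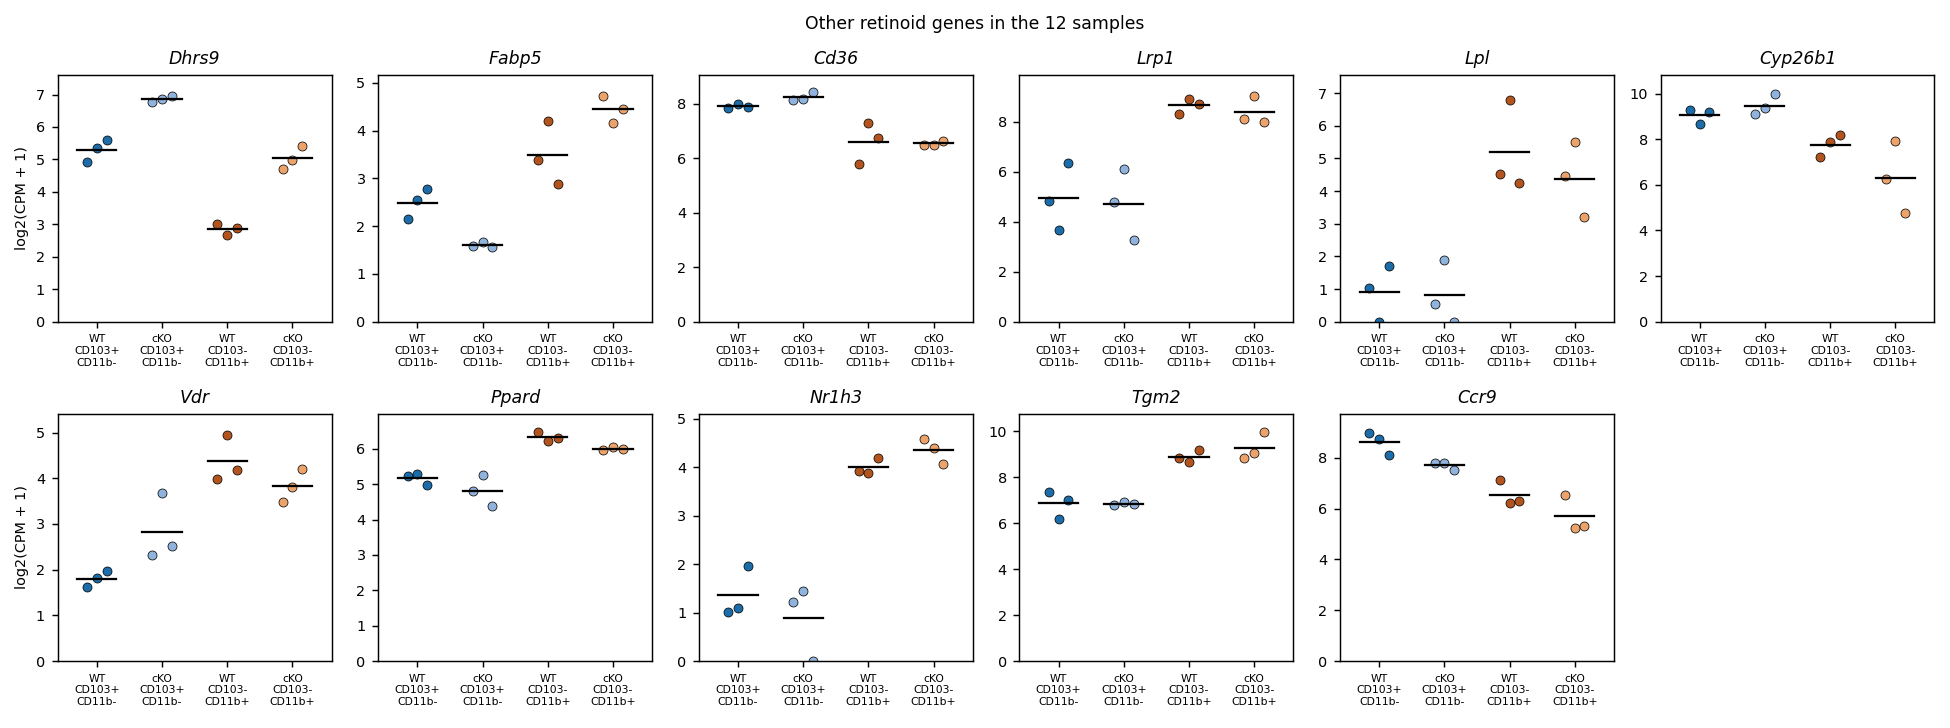
Other retinoid genes in the 12 samples, as log2(CPM + 1). Points are samples and bars are means. Dhrs9 is higher in cKO than in WT in both subsets. Ccr9, Cd36, Cyp26b1 and Dhrs9 have lower means in CD103-CD11b+ DCs, and Lrp1, Lpl, Nr1h3, Ppard and Tgm2 have higher means there.

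Likeness of pattern was measured as Pearson's r of log2 CPM over the 12 samples, among 10683 other genes with a mean of at least 10 CPM, as a description, since the samples share groups. The 5 genes most like Aldh1a2 were Plagl2 (r = 0.975), Prr5l (0.975), Dlgap4 (0.973), Mkrn1 (0.968) and Evl (0.968). Those most like Stra6l, the member with the smallest p for any difference among the 4 groups, were Mcemp1 (r = 0.993), B4galt6 (0.988), Siglece (0.988), Rnf43 (0.984) and Ccr1 (0.983). Mcemp1 averaged 21.8 CPM in WT and 1.53 CPM in cKO CD103+CD11b- DCs, and 34.8 and 40.4 CPM in CD103-CD11b+ DCs. Siglece averaged 33.2 and 1.18 CPM in CD103+CD11b- DCs and 90.4 and 104 CPM in CD103-CD11b+ DCs.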

How the data were processed

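RNA-seq libraries of sorted gut DCs were made by a modified single-cell (RamDA-seq) procedure from small numbers of cells. The authors trimmed reads with Trim Galore, mapped them with STAR 2.7 to mm10 (GRCm38), removed poorly mapped and duplicate reads, and used htseq-count, without regard to strand, for the counting. The authors deposited raw counts per gene, 1 file per sample, without normalization. The counter's summary lines, 61.2% to 67.3% of the reads in a sample, were left out. Counts on genes were 2161929 to 5863484 per sample, and with 3 samples a group low genes are measured imprecisely.

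Symbols and positions came from GENCODE M21 (GRCm38), in which 53706 of the 53801 identifiers matched. No exon base of a member is shared with another gene. The 20580 genes that reached 5 counts in any sample were normalized by TMM and tested by edgeR 4.0.16 (quasi-likelihood F-test), run with limma 3.58.1 under R 4.3.3. A single model held all 4 groups, with Benjamini-Hochberg adjustment. Standard errors are the log2 fold change divided by the square root of F. Alternatives were DESeq2 1.42.0, RLE scaling, 3 other filters, no fold limit (the main fit again, with the same values), replicate blocks, the 6 samples of a comparison alone, and each sample left out. The procedure was also run on simulated counts, with changes set only in better-counted genes and without shared replicate effects. That run therefore does not speak for low genes or for such effects. Tables and plots used Python 3.11.15, pandas 2.3.3 and matplotlib 3.10.9.

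The 10 genes, the other retinoid lists and the marker lists were chosen with earlier results of these data known. The other retinoid genes named are those among the 8 with the smallest p of the called in each comparison, of which 1 is not reported here. Cyp26b1, Bco2, Rarb, Rxrg, Rbp7 and Ttr were added after their values were seen. Same-numbered samples were compared by the correlation of their deviations from the group means over 10684 genes. Between the subsets of the cKO mice, r was over 0.1 in all 3 pairs (0.188, 0.578 and 0.502). A cKO pair of different numbers reached 0.141, same-numbered samples of different genotypes reached 0.564, and WT replicate 2 had -0.160 between its subsets. The check thus does not establish which samples are paired. The block within genotype rests on it alone, as the labels do not say what a number shares. By the study, the 3 samples of a group are from different mice, and whether both subsets came from the same mice is not given in the sources used here.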

Additional observations from a re-analysis of the deposited data

Results flagged for a closer look

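The effect of Cbfb loss on Stra6l differed between the subsets by a test of the difference itself, with a difference of 2.89 on the log2 scale in edgeR's quasi-likelihood test (adjusted p = 0.00993). The 3 cKO samples were all below the 3 WT samples in CD103+CD11b- DCs and overlapped them in CD103-CD11b+ DCs. Fits that omitted a single sample gave differences of 2.7 to 3.24.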

How the results depend on the processing

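The limits of these data are 3 samples a group, low counts for Aldh1a1 and Aldh1a3, and levels of other cell types that move with the subsets. Of 948 values of the 10 genes under an alternative, 881 kept their direction and call, 24 became called, 9 lost the call and 34 changed sign, none of them a called value. The 881 include the values without a fold limit, which repeat the main fit, and most values were not called in the main fit, so this share is not a measure of stability. The number of members called was 1 in CD103+CD11b- DCs between the genotypes and became 2 with DESeq2 and 2 with the replicate block, Aldh1a2 being added by both (adjusted p = 0.0191 and 0.0282), while the share over all genes went from 1.02% to 3.17% and 2.54%. In CD103-CD11b+ DCs it was 0 and became 2 with DESeq2, 1 with filterByExpr, 1 with 5 counts in every sample and 2 with the replicate block, which were Aldh1a2 (0.0384) and Rara (0.0354), while the share over all genes went from 1.61% to 5.52%, 3.07%, 4.87% and 4.13%. The other retinoid genes called there went from 1 to 2 with the replicate block. For the difference of the effects the number of members was 1 and became 2 with DESeq2, where the share went from 0.651% to 2.46%. Leaving out each sample gave 1 to 1, 0 to 0 and 1 to 1 in these comparisons, 4 to 5 between the WT subsets, 4 to 8 between the cKO subsets and 1 to 2 in the average, where single samples of all 4 groups ended the call of Aldh1a2. The replicate block changed no other count of members by over 1.5 times; the same-numbered genotypes correlated over 0.1 in 3 of 6 pairs, and the cause of the changes was not tested. The filter of 5 counts in every sample leaves out Aldh1a1 and Aldh1a3.

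Values that were not called changed sign. For Rxrb the difference of effects was 0.0033 without a filter and 0.00031 with the replicate block, and its WT subset difference was 0.0085 with 5 counts in every sample, where that of Rara was 0.0020. For Rarg the cKO effect in CD103+CD11b- DCs was -0.068 with the replicate block. With samples left out it ran from -0.24 to 0.24. The difference of effects ran from -0.27 to 0.13 for Aldh1a2, -0.61 to 1.76 for Aldh1a3 and -0.064 to 0.081 for Rxrb. The averaged effect ran from -0.10 to 0.99 for Aldh1a1 and -0.13 to 0.10 for Dhrs3. The cKO effect in CD103-CD11b+ DCs ran from -0.51 to 0.18 for Rdh10, -0.12 to 0.013 for Rxrb and -0.068 to 0.44 for Stra6l. Between the cKO subsets, Rxra ran from -0.62 to 0.13 and Rxrb from -0.12 to 0.038.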

Other observations

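Bco2, a carotene cleavage gene, was the other retinoid gene beside Dhrs9 that was called in the contrast averaged over the subsets, where 2.49% of all genes were called. The count of 2 became 4 with the replicate block and 1 with 5 counts in every sample, with shares of 4.74% and 5.48% over all genes. Bco2 was at a mean of 0.244 CPM in WT and 1.47 CPM in cKO CD103+CD11b- DCs and at 1.98 and 6.78 CPM in CD103-CD11b+ DCs. Its average log2 fold change was 2.10 (edgeR adjusted p = 0.0390), and 10 of the 12 fits that left out a sample lost that call. Rarb, the third RAR gene and itself a target of retinoic acid, averaged 10.6 CPM in WT and 15.2 CPM in cKO CD103+CD11b- DCs and 8.91 and 7.50 CPM in CD103-CD11b+ DCs. Between the cKO subsets it was called, with a log2 fold change of -1.05 (edgeR adjusted p = 0.0257), and 4 of the 6 fits that left out a sample lost that call, with adjusted p up to 0.0826. It was also lost without a filter (0.0540) and with the 6 samples of the comparison alone (0.0583). Both genes were named after their values were seen.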
